A study of Mus musculus with 8 samples.

Results

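The bulk RNA-seq of fetal liver LT-HSCs was searched for genes whose counts in both *IκBα* KO samples exceeded every sample that kept at least one *Nfkbia* allele. Members were chosen by their values in these samples. A protein-coding gene was taken when its mean over the 8 samples was at least 5 CPM (the share of a library's counted reads that fell on the gene, times 1000000) and when the lower of KO1 and KO2 was at least 1.1 times the highest of the 3 WT and 3 HET samples, which together are called the references. Of 55487 genes in the count table, 21974 were matched protein-coding genes, 9817 of these reached the minimum of 5 CPM and are called eligible, and 89 met the rule, which is 0.907% of the eligible genes.

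IκBα, the product of *Nfkbia*, binds NF-κB dimers and keeps them out of the nucleus until an upstream signal marks it for degradation, and a further role at chromatin has been described for it in stem cells. LT-HSCs are the hematopoietic stem cells able to repopulate blood over the long term, and the fetal liver is where they expand before birth. The genes described here belong to many pathways, so their roles are given beside their values.

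Embryos were of a line with the *Nfkbia* tm1Bal targeted allele, a germline knockout that affects every tissue of the embryo, and came from matings between heterozygous mice. The WT group was wild type for *Nfkbia*, the HET group had one targeted allele and the KO group had no intact allele. No drug or other agent was given according to the labels. Each library was made from 500 cells sorted at E14.5 as LSK CD48- CD150+. The methods give 3 mice per genotype and name a further KO sample that was discarded for its quality. WT1, WT2 and HET1 were male and labelled total RNA, whereas WT3, HET2, HET3, KO1 and KO2 were female and labelled polyA RNA. The methods describe the same RNA extraction and library kit for all samples, so it is uncertain whether the molecule label stands for a real difference in preparation. Sex and this label cannot be told apart, and no male KO sample was measured.

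Libraries held 17895973 to 21720972 reads on genes, so that 3 reads corresponded to 0.138 to 0.168 CPM. The targeted gene *Nfkbia* had 968, 1621 and 450 reads in WT1, WT2 and WT3, 439, 574 and 243 reads in HET1, HET2 and HET3, and 1 and 0 reads in KO1 and KO2, so the KO labels matched the counts. Several references stood apart from the KO samples in the markers of the sorted cell. The summed level of 10 LT-HSC markers was 2243 and 2541 CPM in WT1 and WT2, 275 CPM in WT3, 179 to 778 CPM in the HET samples, and 2302 and 1344 CPM in KO1 and KO2. *Ly6a*, which encodes the Sca-1 antigen of the gate, had 0 reads in HET3. *Kit*, also of the gate, was at 145 CPM in HET3, 131 to 246 CPM in the other references and 264 and 233 CPM in KO1 and KO2. *Cd48*, whose product the gate excludes, was at 40.5 to 86.4 CPM in the references and 57.4 and 57.2 CPM in KO1 and KO2. The 10 hepatocyte markers summed to 1415 CPM in WT3 and 701 CPM in HET3, against 57.6 and 324 CPM in KO1 and KO2, and the 10 erythroid markers reached 14368 CPM in HET1 against 877 and 3416 CPM in the KO samples. The endothelial markers summed to 5.58 to 344 CPM in the references and 301 and 157.1 CPM in KO1 and KO2. In the same order, the megakaryocyte markers summed to 33.02 to 2034 CPM and 1798 and 388 CPM. The macrophage markers summed to 103.1 to 850.6 CPM and 471.2 and 372.9 CPM, and the granulocyte markers to 101.8 to 809.6 CPM and 598.7 and 152.5 CPM. The B cell list summed to 1.88 to 108.3 CPM and 94.04 and 53.74 CPM, with *Cd79b* alone at 92.37 and 53.24 CPM in KO1 and KO2. The T and NK cell list summed to 6.09 to 18.56 CPM and 19.28 and 6.17 CPM. *Rag1*, *Cd3e* and *Ncr1* of these lists had no reads in any library. The part of these marker differences in the results was not tested, and none of the marker genes was itself a member. In bulk samples fewer cells of a type and less RNA per cell cannot be told apart.

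The margin over the references was small for most members. The ratio of the lower KO sample to the highest reference had a median of 1.16 among the 89 and a highest value of 1.49, it was at least 1.2 in 27 members, at least 1.3 in 12 and at least 1.4 in 6, and no eligible gene reached 1.5. The mean of the KO samples was 1.205 to 3.42 times the mean of the references (median 1.52), and over all eligible genes the median of this ratio was 1.09. It was at least 2 in 11 members, *Lima1*, *Fjx1*, *Postn*, *Ticam1*, *Heatr5a*, *Phlpp1*, *App*, *Scml2*, *Isoc2b*, *Ids* and *Zfp219*. Every member had at least 115 reads in each KO library. With 95% Poisson intervals, which cover counting error only, the interval of the lower KO sample was clear of that of the highest reference in 38 members and overlapped it in 51. The rule compared these same values, and replicates differed by more than counting error, so this split is a description and no test.

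**Figure D1:**
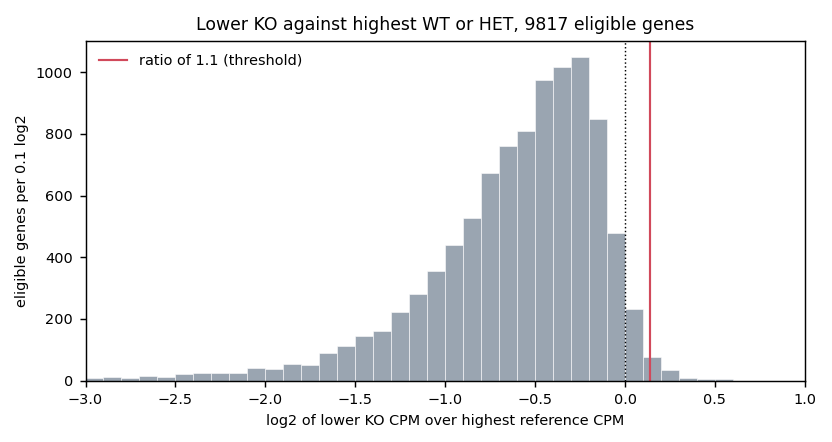
Histogram of the 9817 eligible genes by the log2 ratio of the lower KO sample to the highest reference in CPM, in steps of 0.1, with the red line at the ratio of 1.1 that chose the members and the dotted line at equality. The bulk of genes lies left of 0, since the median ratio was 0.697, and the 89 members form the right tail.

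Of the eligible genes, 364 (3.71%) had both KO samples above all references with no margin in plain CPM. After scaling for library composition this number was 251 with TMM and 217 with the size factors of DESeq2. In the deposited log2 table, which is corrected for sex, it was 2243. For comparison, if every choice of 2 of the 8 samples were equally likely to hold the highest pair, each of the 28 choices would take 3.57%, or 351 of 9817 genes. This is arithmetic on the number of choices, and the 8 libraries differ in depth, composition and sex. The mirror image of the rule, with the higher KO sample at least 1.1 times below the lowest reference, was met by 17 eligible genes (0.173%). They include the targeted gene *Nfkbia*. Just inside the threshold were *Tfip11* (1.1002), *Elovl6* (1.101) and *Atf6b* (1.103), and just outside it were *Troap* (1.0999), *Poldip3* (1.0998) and *Spag5* (1.099).

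The receptors, kinases, phosphatases and secreted proteins numbered 13. *Fjx1* (chromosome 2, 102449366 to 102452499, GRCm38), the homologue of the *Drosophila* kinase four-jointed, had the largest ratio of all members. It was counted at 6.48, 7.22 and 3.54 CPM in WT1, WT2 and WT3, at 3.35, 2.90 and 3.25 CPM in HET1, HET2 and HET3, and at 13.8 and 10.8 CPM in KO1 and KO2. The HET samples were all below the WT samples, and the lower KO sample was 1.49 times WT2. *App*, the amyloid precursor protein, was at 14.6, 14.7 and 3.91 CPM in WT, 7.99, 8.27 and 7.36 CPM in HET, and 20.3 and 19.7 CPM in KO. Here the male WT samples lay nearest to the KO samples and the female WT sample lay lowest. *F2r*, the thrombin receptor PAR1, was among the 5 members with the most reads, and ranged from 53.5 CPM in HET3 to 94.1 CPM in WT2 among the references against 111 and 127 CPM in the KO samples. *Ptpn7*, a hematopoietic phosphatase that acts on MAP kinases, was at 99.7 to 135 CPM in the references and 190 and 150 CPM in the KO samples. *Phlpp1*, a phosphatase of AKT, had a mean of 10.1 ± 1.79 CPM in KO (SD, n = 2) and 4.68 ± 2.32 CPM in the references (SD, n = 6).

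*Mapk7*, which encodes the kinase ERK5, was at 13.4 to 21.1 CPM in the references and at 30.6 and 24.7 CPM in KO. *Tsc2*, which restrains the growth kinase mTORC1, *Nlk*, a kinase of the Wnt and Notch pathways, and *Crk*, a signalling adaptor, had narrower margins, with lower KO samples at 1.14, 1.13 and 1.103 times the highest reference. The other members of the group were *Cdkl3* and *Pskh1*, which encode kinases, *Ppp6r1*, a regulatory subunit of protein phosphatase 6, and *Postn*.

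*Postn*, which encodes the matrix protein periostin, was the member most uneven among the references. It was at 40.1, 17.6 and 2.58 CPM in WT1, WT2 and WT3, at 29.0, 16.2 and 0.304 CPM in HET1, HET2 and HET3, and at 46.2 and 49.7 CPM in KO1 and KO2. The value of HET3 rested on 6 reads and that of WT3 on 56. The same 2 libraries had the lowest summed level of LT-HSC markers.

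**Figure D2:**
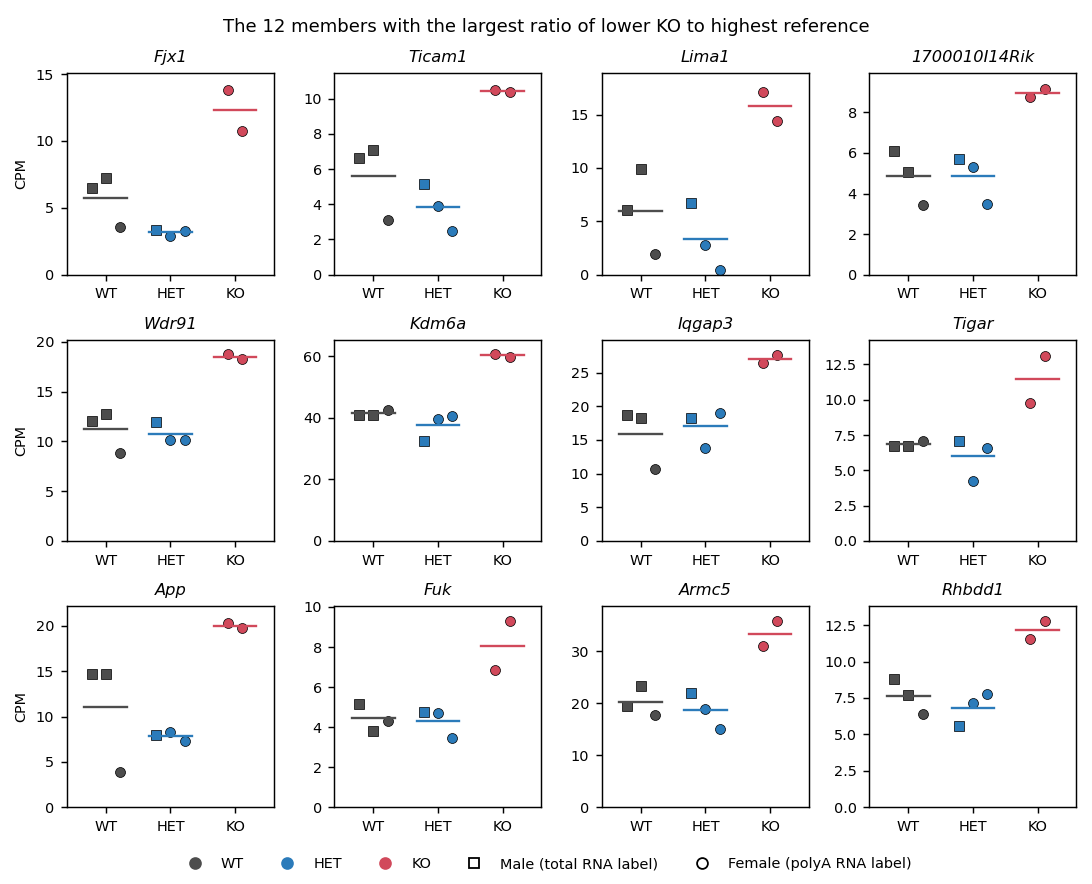
Expression in CPM of the 12 members with the largest ratio of the lower KO sample to the highest reference, 1 point per library, squares for male (total RNA label) and circles for female (polyA RNA label) samples, with lines at group means. In every panel both KO points lie above all 6 references by construction, and in *App* and *Ticam1* the male WT samples lie closest to them.

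A total of 5 members act in innate immune or NF-κB signaling or are known regulators of it. *Ticam1* (chromosome 17, 56269319 to 56276786), which encodes TRIF, the adaptor of Toll-like receptor 3, was at 6.63, 7.07 and 3.13 CPM in WT1, WT2 and WT3, at 5.16, 3.92 and 2.49 CPM in HET1, HET2 and HET3, and at 10.5 and 10.4 CPM in KO1 and KO2. The KO samples were almost equal, and the lower was 1.47 times WT2. *Traf3* (chromosome 12, 111166370 to 111267153), an adaptor that targets the kinase of the non-canonical NF-κB pathway for degradation, was at 9.79, 12.2 and 10.2 CPM in WT, 15.4, 17.7 and 11.7 CPM in HET, and 23.1 and 21.6 CPM in KO. For this gene a HET sample, HET2, was the highest reference. *Cc2d1a*, a scaffold and transcriptional repressor, was at 7.14 to 13.4 CPM in the references and at 21.5 and 16.7 CPM in KO. *Btk*, the tyrosine kinase of B cell receptor signaling, was at 56.3 to 67.4 CPM against 78.8 and 77.7 CPM, and *Cactin*, a nuclear protein linked to splicing and to control of NF-κB, at 39.4 to 49.0 CPM against 69.2 and 56.3 CPM.

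Chromatin and transcription contributed 11 members. *Kdm6a* (chromosome X, 18162575 to 18279936), the demethylase of the Polycomb mark H3K27me3, had the smallest range among the references of the 12 members with the largest ratio. It was at 40.8, 40.8 and 42.5 CPM in WT1, WT2 and WT3, at 32.6, 39.7 and 40.5 CPM in HET1, HET2 and HET3, and at 60.8 and 59.6 CPM in KO1 and KO2. *Kdm6a* is known to escape X inactivation, and both KO samples were female. The highest reference, WT3, was also female. The lower KO sample was 1.4001 times WT3 in plain CPM, and it was 1.11 times the highest reference with TMM scaling and 1.08 times with the size factors of DESeq2. The part of sex in these values was not tested. *Bap1*, which removes ubiquitin from the histone H2A residue marked by Polycomb complexes, was at 59.7 to 68.0 CPM in the references and at 78.2 and 90.4 CPM in KO. *Scml2*, an X-linked homologue of a Polycomb gene, was at 4.41 to 12.5 CPM against 14.47 and 15.4 CPM, and *Nupr1*, a small stress-induced chromatin protein, at 2.38 to 7.75 CPM against 9.67 and 9.93 CPM. *Hic2*, a zinc finger repressor, differed more between the KO samples, with 7.99 CPM in KO1 and 13.1 CPM in KO2. The remaining members were the zinc finger genes *Zfp219* and *Zscan22*, the elongation factor gene *Ell*, the transcription factor gene *Rfx1*, *Phrf1* and the Mediator subunit gene *Med25*, whose fold of means was the smallest of all members (1.205).

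A group of 11 members act in cell division, the cytoskeleton, DNA repair or apoptosis. *Lima1* (chromosome 15, 99778470 to 99875456), which encodes an actin-bundling protein, had the largest fold of means of all members, 3.42. It was at 6.02, 9.88 and 1.89 CPM in WT1, WT2 and WT3, at 6.70, 2.76 and 0.457 CPM in HET1, HET2 and HET3, and at 17.2 and 14.4 CPM in KO1 and KO2. As for *Postn*, HET3 and WT3 were lowest, with 9 and 41 reads. *Iqgap3*, a scaffold of proliferating cells, was at 10.7 to 19.02 CPM in the references and 26.4 and 27.6 CPM in KO. *Ercc1*, a subunit of an excision repair nuclease, and *Fanci*, of the Fanconi anemia pathway, had lower KO samples at 1.22 and 1.12 times the highest reference. *Fzr1*, the CDH1 activator of the anaphase-promoting complex, had among the most reads of the members and was at 127 to 148 CPM in the references against 165 and 184 CPM in KO. The others were *Lrrc45*, *Map1s*, *Kif18b*, *Arhgap11a*, *Arhgef39* and *Dffa*, the inhibitor of the caspase-activated DNase.

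Membrane traffic, the endoplasmic reticulum and the lysosome gave 13 members. *Wdr91* (chromosome 6, 34880426 to 34910876), a regulator of endosome maturation, was at 12.04, 12.8 and 8.89 CPM in WT1, WT2 and WT3, at 11.96, 10.2 and 10.1 CPM in HET1, HET2 and HET3, and at 18.8 and 18.3 CPM in KO1 and KO2. *Heatr5a*, which acts in traffic between endosomes and the Golgi, was at 22.4 to 46.3 CPM in the references and at 75.5 and 59.1 CPM in KO, and its fold of means was 2.17. These genes were spread over the secretory and the degradative routes. *Sec24c*, a cargo subunit of the COPII coat, was at 45.2 to 52.9 CPM against 65.9 and 79.9 CPM. *Scap*, which escorts the sterol-responsive SREBP factors, was at 28.7 to 40.5 CPM against 50.0 and 50.2 CPM. *Atg2a*, a lipid transfer protein of the autophagosome, was at 7.17 to 13.3 CPM against 15.8 and 17.5 CPM. *Ids*, the X-linked lysosomal iduronate sulfatase, had 10.3 CPM in KO1 and 16.7 CPM in KO2, against 4.23 to 9.06 CPM in the references. *Gcc1*, *Tmed8*, *Tbc1d22a*, *Tbc1d10b*, *Tango6*, *Sec14l1* and the stress sensor gene *Atf6b* completed the group.

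Metabolism and glycosylation were represented by 10 genes. *Tigar*, which lowers glycolytic flux by hydrolyzing fructose-2,6-bisphosphate, was at 4.25 to 7.12 CPM in the references and at 9.78 and 13.1 CPM in KO. *Fuk*, the fucokinase of the fucose salvage pathway, was at 3.45 to 5.15 CPM against 6.87 and 9.28 CPM. The sialyltransferase genes *St6galnac6* and *St3gal2* had lower KO samples at 1.17 and 1.12 times the highest reference. *Tkfc*, *Isoc2b*, *Adprhl2*, *Slc25a25*, *Amdhd2* and the fatty acid elongase gene *Elovl6* were the others. Proteolysis and ubiquitin gave 5 members, *Armc5*, an adaptor of a cullin ligase, *Rhbdd1*, a rhomboid protease, the F-box genes *Fbxl18* and *Fbxo45*, and *Ubb*. *Armc5* was at 15.01 to 23.4 CPM in the references and 31.0 and 35.8 CPM in KO, and *Rhbdd1* at 5.57 to 8.77 CPM against 11.6 and 12.8 CPM. *Ubb*, a polyubiquitin gene, had the most reads of all members, with 299 to 417 CPM in the references and 470 and 480 CPM in KO, but it shares near-identical repeats with other ubiquitin genes and its unique counts are uncertain.

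The 8 members of RNA and translation had the smallest margins, with ratios of 1.1002 to 1.18 and folds of means of 1.23 to 1.47. *Vars*, the valyl-tRNA synthetase gene, was at 202 to 266 CPM in the references and 310 and 359 CPM in KO. *Igf2bp3*, an mRNA-binding protein of fetal tissues, was at 64.0 to 69.3 CPM against 85.5 and 78.0 CPM. The helicase genes *Dhx30* and *Ddx54*, *Zcchc3*, *Zfp385a*, *Unk* and the splicing factor gene *Tfip11* made up the rest. For 13 members no role is given, among them *1700010I14Rik*, which was at 3.45 to 6.12 CPM in the references and at 8.77 and 9.17 CPM in KO and had a ratio of 1.43. The groups by role were assigned after the members were known.

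Members were also counted on lists of pathway genes, each of which holds a selection of a pathway and not all of it. Of 54 eligible genes on the NF-κB signaling list, 2 were members (*Ticam1* and *Traf3*, 3.70%, against 0.907% of all eligible genes). The mirror rule was met by 1, the targeted gene *Nfkbia* itself. On the Polycomb list *Bap1* was a member (1 of 36, 2.78%), on the list of other chromatin regulators *Kdm6a* (1 of 87, 1.15%) and on the lysosome and autophagy list *Atg2a* (1 of 63, 1.59%). None of the listed 20 NF-κB target genes, 50 interferon-stimulated genes, 18 genes of MHC class I presentation, 13 retinoid genes, 36 HSC transcription factors, 20 endothelial and AGM genes, 31 dormancy genes or 54 cell cycle genes was a member. The median ratio of the lower KO sample to the highest reference was 0.734 for NF-κB signaling, 0.544 for NF-κB targets, 0.552 for interferon-stimulated genes, 0.515 for dormancy genes and 0.745 for cell cycle genes, against 0.697 over all eligible genes. The median log2 difference of means, KO minus references in plain CPM, ordered the lists otherwise. It was 0.405 for NF-κB signaling, 0.305 for NF-κB targets and 0.368 for interferon-stimulated genes. Dormancy genes were at 0.592 and cell cycle genes at -0.041, against 0.121 over all eligible genes. Lists of small GTPase regulators (58 eligible), TGF-β and BMP (24), Notch and Wnt (33), MAPK and AP-1 (46), apoptosis (33), cytokine signaling (51) and adhesion (40) held no member either. Members with related roles, such as *Mapk7*, *Nlk*, *Dffa*, *Ids*, *Arhgap11a* and *Tbc1d10b*, are not on these lists. In all, 84 of the 89 were on none of the lists, and counts this small do not set the members apart from other eligible genes. By symbol family, members were 3 of 314 zinc finger genes, 1 of 169 solute carriers, 2 of 156 genes with E3 ligase or F-box symbols, 2 of 90 RNA helicase and splicing genes, 1 of 47 kinesin, dynein and tubulin genes, 3 of 224 Tmem and Fam genes and 1 of 167 RIKEN and predicted genes, and none of 74 cytosolic ribosomal, 77 mitochondrial ribosomal or 92 respiratory chain genes. None of 24 histone, 45 ubiquitin protease or 72 Rab and Arf family genes was a member.

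The members varied little within each group. The absolute log2 difference between KO1 and KO2 had a median of 0.14 among members and 0.34 among eligible genes, and KO1 was the higher in 43 of 89. Only *Tigar*, *Fuk*, *Hic2*, *Ids* and *Fam160b2* differed by 1.3 times or more between the KO samples, and they are named after their values were seen. The highest reference was a median of 1.51 times the lowest among members and 1.91 times among eligible genes. It was under 1.5 times in 43 members (48.3%) and in 26.8% of eligible genes, and at least 3 times in 8 members, *Lima1*, *App*, *Nupr1*, *Phlpp1*, *Zfp219*, *Isoc2b*, *Postn* and *Fv1*. The rule compares the lower KO sample with the highest reference, so it favors genes with a small spread in either group.

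The highest reference was a male WT sample in 63 members, WT2 in 40 and WT1 in 23. HET2 was highest in 8 members, HET1 and HET3 in 7 each and WT3 in 4. Male samples were highest in 70 members and female samples in 19. Among eligible genes WT2 was highest in 33.5%, WT1 in 24.2%, HET3 in 16.7% and WT3 in 12.03%. WT1 and WT2 were also the references whose LT-HSC marker levels were nearest to those of KO1. KO2, at 1344 CPM, lay between HET1 (778 CPM) and WT1 (2243 CPM). When only the female references were used, 3367 eligible genes met the rule, and with HET alone 2643 did, whereas with WT alone 173 did. Without WT3 and HET3, an alternative chosen after seeing the data, 134 did, and all 89 members were among them.

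**Figure D3:**
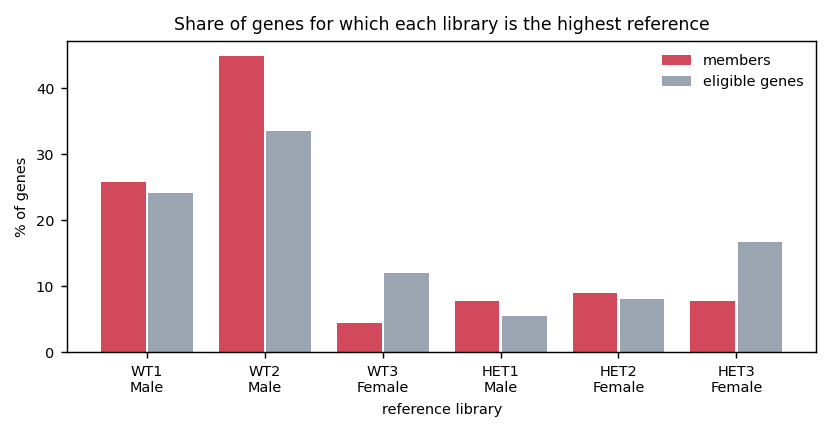
Percentage of the 89 members (red) and of the eligible genes (gray) for which each reference library, with its sex, had the highest CPM of the 6. WT2 held this place for 44.9% of members and 33.5% of eligible genes, and WT3 and HET3 held it for a smaller share of members (4.49% and 7.87%) than of eligible genes (12.03% and 16.7%).

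Plain CPM does not correct for the composition of the libraries, and it shifted the median log2 difference between KO and references to 0.12 over all eligible genes, whereas it was -0.02 with TMM scaling and -0.04 with the size factors of DESeq2. The median of the members, which were chosen for this difference, was 0.61 with plain CPM, 0.47 with TMM and 0.45 with the size factors. In the deposited log2 table, which is corrected for sex, it was 0.25 against -0.04 over eligible genes. With TMM scaling 60 of the 89 still had both KO samples above all references, 33 of them by 1.1 times, and with DESeq2 size factors these numbers were 54 and 30. The 30 that met the rule under both scalings included *Fjx1*, *Ticam1*, *Lima1*, *1700010I14Rik*, *Wdr91*, *App*, *Fuk*, *Armc5*, *Heatr5a*, *Cc2d1a*, *F2r*, *Mapk7* and *Ptpn7*, and of these *Fuk* did not meet it in the deposited log2 table, in which 23 did. *Iqgap3* was at 1.04 with TMM and *Traf3* at 1.06. None of the 8 members of RNA and translation met the rule under TMM, and *Vars* (0.87) and *Fzr1* (0.91) fell below the highest reference.

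**Figure D4:**
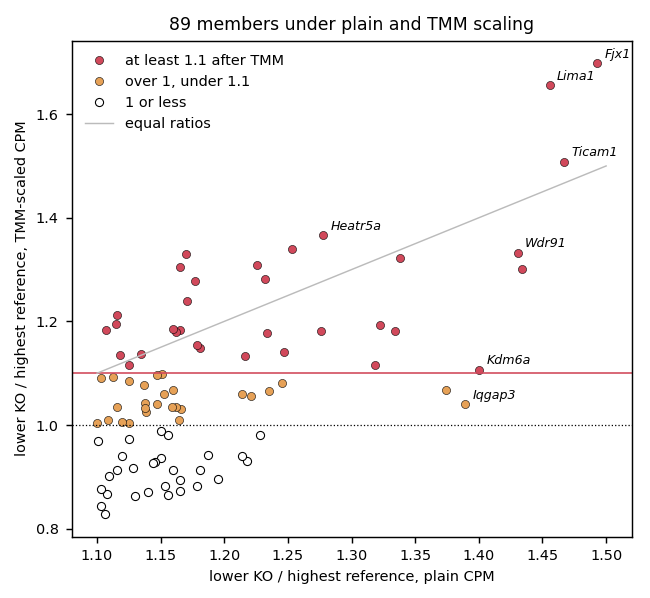
Ratio of the lower KO sample to the highest reference for the 89 members with plain CPM (x axis) and after TMM scaling (y axis), with the gray line at equal ratios, the dotted line at 1 and the red line at 1.1. After TMM 33 members lie at 1.1 or more, 60 above 1 and the other 29 at or below the highest reference.

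Contrasts among the references did not use the KO samples. The rule did use the highest reference and so favors genes with a small spread among the references, and the members' values in these contrasts are therefore given as a description. HET was compared with WT to ask whether loss of a single allele moved these genes, with edgeR's quasi-likelihood test, sex in the model and Benjamini-Hochberg adjustment over 20585 genes. It called 0 genes (0%), with 747 at an unadjusted p under 0.05, and DESeq2 called 64 (0.311%). No member was called by either, and none had an unadjusted p under 0.05 with edgeR, against 3.89% of eligible genes. The log2 difference was positive in 52 members and negative in 37, with a median of 0.06 against 0.05 over eligible genes. *Traf3* had a log2 fold change of 0.61 with a standard error of 0.28. *Fjx1* was at -0.51 (standard error 0.43) and *Ticam1* at -0.09 (standard error 0.41). All 3 HET samples were below all 3 WT samples in 9 members (10.1%, against 5.15% of eligible genes), *Fjx1*, *Kdm6a*, *Arhgef39*, *Pramef8*, *Ell*, *Fam160b2*, *Ubb*, *Gpr137* and *Tkfc*, and above them in *Srbd1* alone (1.12% against 3.25%).

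Male and female references were compared in the same way, a difference that also stands for the molecule label and moves with the LT-HSC markers. The edgeR test with genotype in the model called 3 of 20585 genes (0.0146%), the Y-linked *Ddx3y*, *Uty* and *Eif2s3y*, with 4669 at an unadjusted p under 0.05, and DESeq2 called 1838 (8.93%). With the replicate number as a block edgeR called 0 genes, with 297 at an unadjusted p under 0.05. This block leaves few residual degrees of freedom, and only WT2 and HET2 share a number and differ in sex. Such a fit could hardly call a gene, so its 0 calls say little. None of the members was called by edgeR or DESeq2. An unadjusted p under 0.05 was found for 4 members (4.49%, against 35.9% of eligible genes), *Kdm6a* at -0.42, *Phrf1* at -0.50, *Vars* at -0.37 and *Lima1* at 1.84 on the log2 scale of male minus female, none of which passed the adjustment. The largest differences of male minus female were those of *Postn*, at 2.43 (standard error 1.29), and *Lima1*, and the smallest those of *Gpr137*, at -0.60 (standard error 0.30), and *Atg2a*, at -0.55 (standard error 0.30). *Lima1* and *Postn* were called without a filter on low counts and when HET2 was left out. All male references were above all female ones in 19 members (21.3%, against 33.8% of eligible genes) and below them in none (18.4% of eligible genes).

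**Figure D5:**
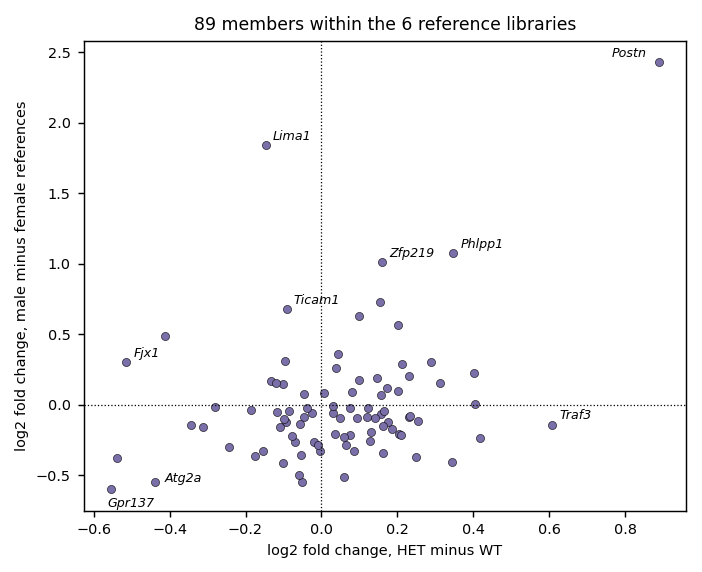
log2 fold changes of the 89 members within the 6 references, HET minus WT (x axis, sex in the model) and male minus female (y axis, genotype in the model), 1 point per gene. Most points lie near the origin, and *Postn* and *Lima1* stand apart on the y axis at 2.43 and 1.84.

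For KO against the pooled references the members' values are a description, because this contrast chose them. With sex in the model edgeR called 0 of 20610 genes (0%), with 5196 at an unadjusted p under 0.05, and DESeq2 called 1825 (8.85%), of which 9 were members, *App*, *Fjx1*, *Gcc1*, *Heatr5a*, *Lima1*, *Phlpp1*, *Scml2*, *Ticam1* and *Zfp219*. The fitted log2 fold change of members had a median of 0.43, against -0.03 over eligible genes. The fitted values, which adjust for sex and use TMM scaling, were largest in *Lima1* (2.94), *Postn* (2.68) and *Fjx1* (1.63). In *Nlk*, *Adprhl2* and *Phrf1* they were slightly negative, at -0.01, -0.02 and -0.04.

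The members shared few features that the rule did not use. Their median exonic length was 4887 bases against 4538 for eligible genes, with 12 against 10 exon blocks. They were spread over 19 chromosomes, with 11 on each of chromosomes 7 and 11 (12.4% each, against 7.35% and 8.38% of eligible genes) and *Kdm6a*, *Scml2*, *Btk* and *Ids* on the X (4.49% against 3.26%). A total of 43 overlapped another annotated gene, 20 of them a protein-coding one, and their counts are uncertain because the strand setting of the counting is not stated. Among them are *Traf3*, *Fzr1*, *Mapk7*, *Zfp219*, *Gcc1* and *Phrf1*, the last of which overlaps the interferon regulatory gene *Irf7*. Per kilobase of exon the KO means ran from 0.934 CPM for *Fbxl18* to 284 CPM for *Ubb*.

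Promoter sequences from RefSeq (GRCm38.p6, 250 bases before to 50 after the transcript start) were matched for 78 members. The κB motif, the binding sequence of NF-κB dimers, was found on either strand in 8 of them (10.3%), against 12.02% of 7915 eligible genes and 10.2% of all 20582 promoters. The AP-1 site TGANTCA was in 4 members (5.13%, against 5.46% of eligible genes and 8.51% of all), the E-box CANNTG in 53 (67.9% against 65.9% and 73.2%), the ISRE core of interferon factors in 4 (5.13% against 3.65% and 3.92%) and a retinoic acid response element in none (0.126% and 0.253%). Motifs may overlap each other, and a match says only that the letters are present. The genes with a κB match were *Traf3*, *Fzr1*, *Mapk7*, *Nlk*, *Tango6*, *Tbc1d10b*, *Tcaf1* and *Tmed8*. The windows of *Traf3* (chr12:111166335-111166369, plus strand), *Nlk* (chr11:78697577-78697636, minus strand) and *Mapk7* (chr11:61494265-61494324, minus strand) are printed because *Traf3* is itself a gene of the pathway and the others are kinases. They are read 5′ to 3′ on the strand of the gene, with the match in capitals.
Traf3: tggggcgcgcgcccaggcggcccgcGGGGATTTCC
Nlk: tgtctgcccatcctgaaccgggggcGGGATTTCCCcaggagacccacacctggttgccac
Mapk7: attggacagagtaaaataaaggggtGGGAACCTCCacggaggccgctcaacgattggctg
The match ends at the base before the transcript start in *Traf3*, and it begins 186 bases before it in *Nlk* and 38 bases before it in *Mapk7*. *Traf3* and *Mapk7* had lower KO samples at 1.22 and 1.17 times the highest reference and *Nlk* at 1.13 times. *Ticam1* had no match in its window.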

How the data were processed

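Counts per gene were deposited by the authors, who according to the methods trimmed reads with Trim Galore, aligned them with STAR to GRCm38 and kept unique reads. The submitters' processing notes name Trim Galore 0.6.6, STAR 2.7.8 and DESeq2 1.38.3. The strand setting was not given in the sources used here. The authors also deposited a log2 table, variance-stabilized and corrected for sex, which was used here as an alternative. Of 55487 genes, 55227 were matched to GENCODE M21 (GRCm38) for biotype and position, and the unmatched genes held at most 0.0154% of reads. The members and the gene lists were chosen with earlier results of these data known. CPM was the count divided by the library total, times 1000000.

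Contrasts among samples were fitted over genes with at least 10 reads in all samples together, with edgeR 4.0.16 (TMM, quasi-likelihood test, legacy form), and DESeq2 1.42.0 was the alternative, both in R 4.3.3. Genes were called when the adjusted p was under 0.05 and the log2 fold change exceeded 1 in either direction. The scripts were tested on simulated counts. The text names *Nfkbia*, the 12 members with the largest ratio, the 5 with the most reads, the 3 genes on each side of the threshold, list members, the 2 with the largest and the 2 with the smallest male minus female difference, and any gene in a count of 5 or fewer. Other members are named by their role, chosen after their values were seen.

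Same-numbered WT and HET samples deviated together from their group means (correlations of 0.68, 0.47 and 0.76). The main fits had no term for the number, which was a block in an alternative fit only. Samples with other numbers correlated as much (0.71 between WT2 and HET1 and 0.45 between WT1 and HET2), and pairs 1 and 3 share sex, so the number alone does not identify a pair. KO1 correlated at 0.60 with WT1 and 0.44 with HET1, and KO2 at -0.59 with WT2 and -0.33 with HET2. With 2 KO libraries the deviations of KO1 and KO2 are mirror images, so these values cannot show whether KO numbers pair. Between replicates the counts differed by more than sampling noise, with a mean chi-square per gene of at least 24.7. Reads per library (17895973 to 21720972) set a floor of 0.138 to 0.168 CPM for 3 reads.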

Additional observations from a re-analysis of the deposited data

How the results depend on the processing

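The count of 89 genes stayed within 1.5 times under 7 of 24 alternatives, among them TMM scaling (64 genes, 33 of them members). It was 53 with DESeq2 size factors (30 members), 1432 in the deposited log2 table (24 members), 136 with a mean CPM of 1 or more, 250 with no minimum, 48 with a mean CPM of 20 or more, 364 with no margin, 27 at a ratio of 1.2 and 0 at 1.5. With WT alone as reference it was 173, with HET alone 2643 and with female references alone 3367. Leaving out 1 library gave 98 to 761 genes, and the largest changes came without WT1 (163), WT2 (319), KO1 (405) and KO2 (761). Chosen after seeing the data, the count was 134 without WT3 and HET3 and 616 against WT1 and WT2 only. Leaving out references makes the rule easier to meet, but the count did not follow the size of the group. It was lower against WT1 and WT2 only (616) than with HET alone (2643) or female references alone (3367).

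Calls of HET against WT rose from 0 to 64 with DESeq2 and to 131 without a filter on low counts, and leaving out 1 library gave 0 to 135 (135 without HET2). Male against female references went from 3 calls to 1838 with DESeq2, 2154 without the filter, 0 with at least 10 reads in every sample and 5 with the version 4 form of edgeR, and to 1 to 2999 when 1 library was left out (1 without WT1 or WT2, 1482 without HET1 and 2999 without HET2). KO against references went from 0 to 1825 with DESeq2, 1106 without the filter and 1 with the version 4 form, and to 0 to 730 when 1 library was left out (8 without HET1 and 730 without HET2). The cause was not tested. With the replicate number as a block the calls were 0 for HET against WT, 0 for KO against references and 0 for male against female references. The block leaves few residual degrees of freedom, above all in the 2 contrasts among the references, so these 0 calls say little.

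The median log2 difference of members was 0.01 to 0.06 for HET minus WT and -0.15 to -0.01 for male minus female over 13 alternatives each, with the sign kept. The median of eligible genes was similar, at 0.02 to 0.06 and -0.10 to 0.01. For KO minus references the median of members was 0.30 to 0.50 over 15 alternatives, lowest without KO2, and that of eligible genes -0.06 to 0.03. The KO group held 2 libraries, both female, so its spread rests on 1 pair and no male KO value was measured.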
